A study of Mus musculus with 6 samples.

Results

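The clock output and Rev-erb/Ror loop genes described here are 9 of the 57186 genes in the count table. They are the PAR bZIP factors Dbp, Tef and Hlf, their opponent Nfil3, the Rev-erb genes Nr1d1 and Nr1d2, the Ror gene Rora, and the Dec genes Bhlhe40 and Bhlhe41. They were taken by gene symbol, and each symbol matched 1 row. The list was selected on the difference between Y-KO and Y-Scr, with fold changes of these libraries known. The members' levels, fold changes, calls and ratios to each other in that comparison are therefore a description and no independent evidence.

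MB49 is a mouse bladder carcinoma cell line. Y-KO libraries came from tumours of MB49 cells whose Y chromosome had been targeted with CRISPR, and Y-Scr libraries from tumours of MB49 cells given the scrambled CRISPR control, with 3 libraries in each group. Cells of both kinds were grown as subcutaneous tumours in C57Bl/6J mice up to a volume of 500 mm3, and cells negative for the leukocyte antigen CD45 were sorted. The labels give neither the time of day of collection, nor the age or sex of the mice, nor whether each cell line was 1 clone or a pool, nor whether the libraries of a group came from separate animals. If they did not, the spread behind the p-values is partly technical.

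The circadian clock of mammalian cells is a transcriptional feedback loop. Bmal1 (gene Arntl) and Clock bind E-box elements and switch on the Per and Cry genes, whose proteins in turn repress Bmal1 and Clock. The same E-box drive reaches many of the genes described here. Rev-erb proteins repress and Ror proteins activate through a shared element in genes such as Arntl. PAR bZIP proteins activate and Nfil3 represses through the D-box, and Dec proteins compete at E-boxes.

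The stretch from 250 bases before to 50 after the start site of the members was searched on both strands for the elements that these factors use, and the parts that hold one are printed here because they show which element stands before which gene. The promoter table (RefSeq, GRCm38.p6) held 9 promoters for 8 of the 9 members; Bhlhe40 was not in it. The E-box CACGTG was found before Tef, at both of its start sites, and before Bhlhe41. The variant CACGTT, read as AACGTG on the gene's strand, was found before Nr1d1. The Ror element TAGGTCA, read as TGACCTA on the gene's strand, was found before Nfil3, from 12 to 6 bases before the start. No member held the D-box TTANGTAA. Capitals mark the element in these stretches of 100 bases.
Tef, upstream start site, chr15:81802499-81802598, plus strand: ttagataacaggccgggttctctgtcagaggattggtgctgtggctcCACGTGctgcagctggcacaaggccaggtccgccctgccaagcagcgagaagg
Tef, downstream start site, chr15:81811229-81811328, plus strand: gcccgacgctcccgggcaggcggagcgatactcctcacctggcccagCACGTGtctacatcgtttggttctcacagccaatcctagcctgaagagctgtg
Bhlhe41, chr6:145865521-145865620, minus strand: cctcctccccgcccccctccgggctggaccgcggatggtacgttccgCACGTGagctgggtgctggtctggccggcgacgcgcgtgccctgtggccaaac
Nr1d1, chr11:98775378-98775477, minus strand: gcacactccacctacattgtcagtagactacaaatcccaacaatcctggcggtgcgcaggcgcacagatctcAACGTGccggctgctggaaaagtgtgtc
Nfil3, chr13:52981040-52981139, minus strand: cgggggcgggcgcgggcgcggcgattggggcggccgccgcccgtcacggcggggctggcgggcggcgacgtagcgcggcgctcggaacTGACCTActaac

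In the same window of all 32851 promoters of the table, 7.15% held the E-box, 4.68% its variant, 2.32% the D-box and 2.61% the Ror element. Among the 8 core loop genes with a promoter in the table, Per1, Cry1 and Ciart held the E-box, and Cry1 and Cry2 held its variant. Per3 held 2 D-boxes, and Arntl held a Ror element from 30 to 36 bases after its start. These matches describe letters in a window, and binding was not measured.

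Library totals lay between 42040955 and 52951031 reads. The summed level of the Y-linked genes Kdm5d, Uty, Ddx3y and Eif2s3y was 20.4 to 47.3 CPM (counts per library size, TMM-scaled) in Y-KO, against 296 to 344 CPM in Y-Scr, which checks the labels. Distances between libraries differed within Y-KO. The median absolute difference in log2 CPM was 0.18 between Y-KO replicates 1 and 2, while Y-KO replicate 3 differed from them by 0.34 and 0.35, and it was 0.14 to 0.20 among the Y-Scr libraries. Ptprc, which encodes CD45, was still present, at 134 to 298 CPM in Y-KO libraries against 521 to 601 CPM in Y-Scr, so the libraries held RNA of leukocytes. Of 7 epithelial markers, the keratin genes Krt8, Krt18 and Krt19 were called higher and the adhesion gene Epcam lower in Y-KO, and the 3 others, among them Krt5 and Cdh1 with all Y-KO libraries below all Y-Scr, were not called; their sum was 3223 to 3427 CPM in Y-KO, against 2391 to 2723 CPM in Y-Scr. In such bulk samples fewer cells of a type and less RNA per cell cannot be told apart.

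Dbp and Tef stood far above the Y-Scr level in every Y-KO library, Nr1d1 and Nr1d2 stood modestly above it, and Rora and Hlf stood below it. Nfil3, Bhlhe40 and Bhlhe41 overlapped between the groups. By edgeR's quasi-likelihood test with Benjamini-Hochberg adjustment over the 17837 genes tested (adjusted p under 0.05), 4 of the 9 members were called higher and 1 lower in Y-KO. Among all genes tested, 7.82% were called higher and 8.27% lower, and 16.1% in either direction. The 3 Y-KO libraries lay above all 3 Y-Scr libraries in 4 members and below them in 2, so that 6 of 9 did not overlap. Among all genes tested 17.5% lay above, 20.3% below and 37.7% did not overlap. Of the 9 members, 8 passed the filter on low counts in both groups and Hlf only through Y-Scr. Hlf is 1 of the 2 members below, and the filter fixed its place there, so it adds nothing to that count. The median log2 fold change (Y-KO over Y-Scr) of the 9 was 0.17, and that of all genes tested was -0.03.

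**Figure D1:**
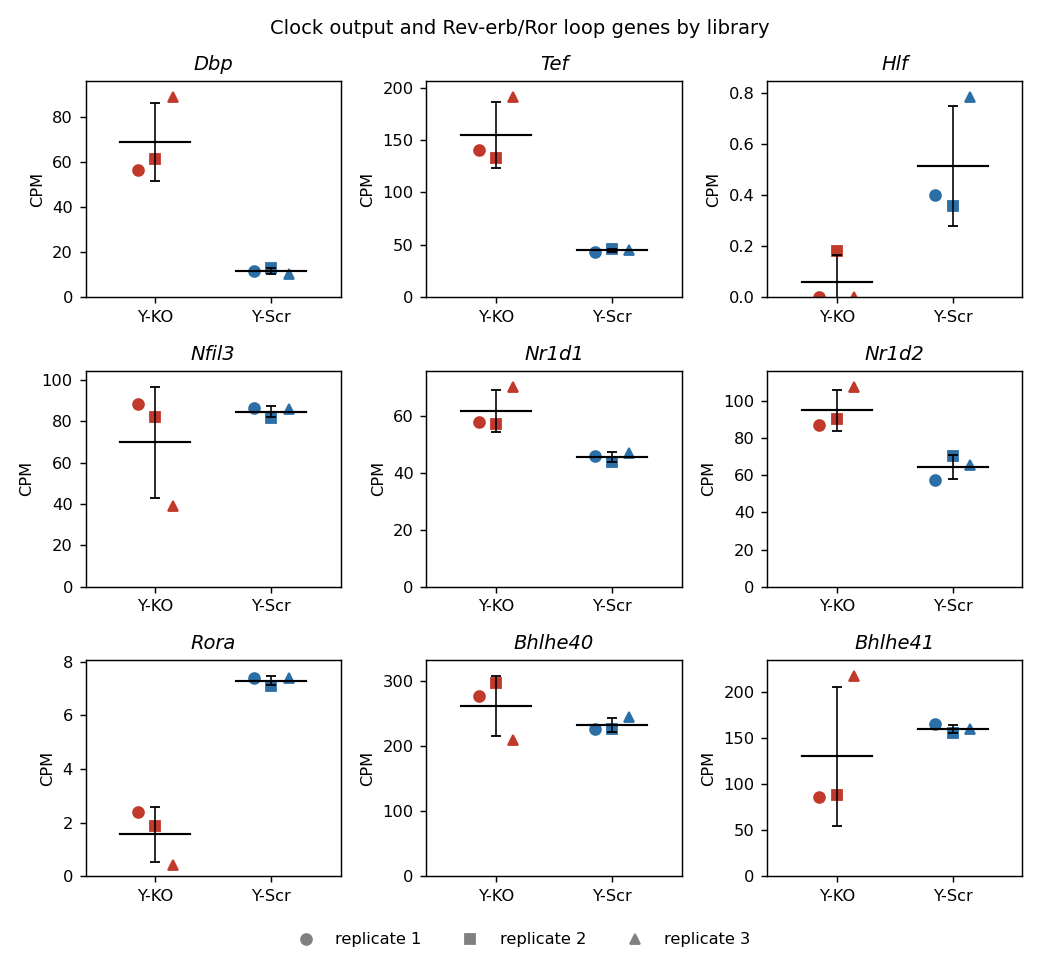
Level of each clock output and Rev-erb/Ror loop gene in CPM (y axis, from 0) in the 3 Y-KO and 3 Y-Scr libraries; points are libraries, horizontal lines the group means and bars the SD. Dbp lies at 56.6 to 89.1 CPM in Y-KO tumours and at 10.2 to 12.9 CPM in Y-Scr, while the Nfil3, Bhlhe40 and Bhlhe41 points of Y-KO replicate 3 lie apart from the other Y-KO points.

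Among the PAR bZIP activators, Dbp, named for binding the albumin promoter D-box (ENSMUSG00000059824, chr7:45354512-45359627, plus strand, GRCm39), had 56.6, 61.4 and 89.1 CPM in Y-KO replicates 1, 2 and 3, against 11.6, 12.9 and 10.2 CPM in the Y-Scr libraries. Every Y-KO library was above every Y-Scr library, and Y-KO replicate 3 was the highest. The fitted difference was 5.97-fold (log2 fold change 2.58, SE 0.19). Reads behind these values were many: Dbp had 9387 reads over the Y-KO group and 1755 over the Y-Scr group.

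Tef, thyrotroph embryonic factor (ENSMUSG00000022389, chr15:81686622-81711064, plus strand), had 141, 133 and 191 CPM in Y-KO, against 43.4, 46.2 and 45.3 CPM in Y-Scr. The groups did not overlap, and replicate 3 was again the highest of the Y-KO libraries. The difference was 3.44-fold (log2 fold change 1.78, SE 0.14). The call of Dbp and of Tef was kept in each of the 16 alternatives, with a log2 fold change from 2.35 to 2.70 for Dbp and from 1.60 to 1.88 for Tef.

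Hlf, hepatic leukemia factor (ENSMUSG00000003949, chr11:90227362-90281721, minus strand), was close to the limit of detection. It had 0, 8 and 0 reads in Y-KO replicates 1, 2 and 3, and 22, 16 and 42 reads in Y-Scr, which is 0.0602 ± 0.104 CPM (SD, n = 3) in Y-KO, against 0.515 ± 0.235 CPM in Y-Scr. It was not called (log2 fold change -3.06, SE 1.31), and since it passed the filter only through the Y-Scr libraries it had to stand lower in Y-KO. Without Y-KO replicate 2, which holds all reads of that group, Hlf was called lower.

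Nfil3 (also E4bp4), the D-box repressor that is also needed for natural killer cell development in mice (ENSMUSG00000056749, chr13:53121245-53135109, minus strand), had 88.3, 82.2 and 39.1 CPM in Y-KO, against 86.5, 81.7 and 85.8 CPM in Y-Scr. Y-KO replicates 1 and 2 lay at the Y-Scr level and replicate 3 lay below all other libraries. The gene was not called (log2 fold change -0.28, SE 0.26), and without Y-KO replicate 3 the value was 0.0085. The summed level of 8 leukocyte markers was 2513, 2566 and 1174 CPM in Y-KO, against 3280 to 3397 CPM in Y-Scr, with 3 of the 8 called lower and none higher. The sum of 12 T and NK cell markers was 125 to 213 CPM in Y-KO, against 695 to 762 CPM in Y-Scr, with 11 of the 12 called lower, and the defining markers Cd3e and Ncr1 were above 0 in all libraries. The part of these cells in the Nfil3 level was not tested.

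The RNA of the D-box activators was set against that of the repressor as a ratio within each library. The unit was TPM, a unit of transcript abundance that corrects for gene length. Protein and binding were not measured, and in these bulk samples the RNA of both genes need not come from the same cells. The log2 ratio of Dbp to Nfil3 was -1.21, -0.98 and 0.62 in Y-KO, against -3.47, -3.22 and -3.63 in Y-Scr. Only in Y-KO replicate 3 did Dbp exceed Nfil3. The log2 ratio of Tef to Nfil3 was -1.29, -1.26 and 0.33 in Y-KO and -2.95, -2.78 and -2.88 in Y-Scr. Neither ratio overlapped between the groups, which restates how these selected genes differed and is no separate result. The log2 ratio of Dbp to Tef also stood higher in Y-KO, at 0.08 to 0.29, against -0.76 to -0.44 in Y-Scr.

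**Figure D2:**
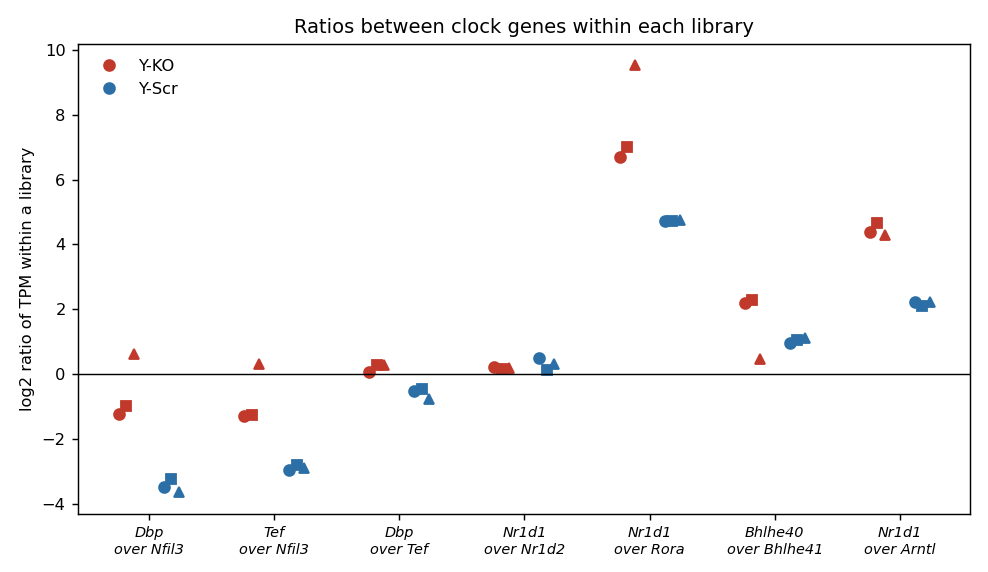
Log2 ratio of TPM between pairs of clock genes within each library (y axis); red points are Y-KO, blue points Y-Scr, and circles, squares and triangles are replicates 1, 2 and 3. Ratios of Dbp or Tef to Nfil3, Dbp to Tef, Nr1d1 to Rora and Nr1d1 to Arntl lie higher in all Y-KO libraries, while Nr1d1 to Nr1d2 and Bhlhe40 to Bhlhe41 overlap.

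The Rev-erb genes differed less. Nr1d1, which encodes the heme-binding repressor Rev-erb alpha (ENSMUSG00000020889, chr11:98658758-98666159, minus strand), had 57.9, 57.2 and 70.5 CPM in Y-KO, against 46.2, 43.9 and 47.0 CPM in Y-Scr. The groups did not overlap, and the difference was 1.35-fold (log2 fold change 0.44, SE 0.11). Nr1d2, which encodes Rev-erb beta (ENSMUSG00000021775, chr14:4230569-4265642, plus strand), had 87.3, 90.2 and 108 CPM in Y-KO, against 57.3, 70.2 and 65.8 CPM in Y-Scr, which makes 1.48-fold (log2 fold change 0.56, SE 0.12). Both genes were highest in Y-KO replicate 3, as Dbp and Tef were. The Nr1d1 call was lost without Y-KO replicate 1, without any 1 of the Y-Scr libraries and with library size alone as the scaling, and the Nr1d2 call without Y-Scr replicate 1 or 3. Both calls were also lost with the closest library pairs summed, which leaves 2 libraries in each group and called 2.55% of all genes tested. The log2 ratio of Nr1d1 to Nr1d2 in TPM was 0.16 to 0.22 in Y-KO and 0.14 to 0.50 in Y-Scr, so the pair kept overlapping proportions.

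Rora, which encodes the activator Ror alpha (ENSMUSG00000032238, chr9:68561068-69295528, plus strand), had 2.39, 1.90 and 0.409 CPM in Y-KO, against 7.38, 7.09 and 7.38 CPM in Y-Scr. All Y-KO libraries were below all Y-Scr libraries, replicate 3 the furthest, and the difference was 4.63-fold (log2 fold change -2.21, SE 0.51). The call was lost without any 1 of the Y-Scr libraries and with the closest pairs summed. Rora thus differed in the opposite direction to the Rev-erb genes. The log2 ratio of Nr1d1 to Rora in TPM was 6.68, 7.00 and 9.52 in Y-KO and 4.72 to 4.76 in Y-Scr. The value of 9.52 is that of Y-KO replicate 3, which held 18 Rora reads. Rorb, which encodes a relative of Ror alpha, had 2, 0 and 8 reads in Y-KO and none in Y-Scr and was not tested. Lymphoid cells express Rora, and the T and NK cell marker sum given above was lower in Y-KO as well; its part in the Rora level was not tested.

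Of the Dec genes, Bhlhe40, which encodes the E-box repressor Dec1 (ENSMUSG00000030103, chr6:108637590-108643886, plus strand), had 277, 298 and 211 CPM in Y-KO, against 227, 227 and 246 CPM in Y-Scr. Y-KO replicates 1 and 2 were above and replicate 3 was below all Y-Scr libraries, and the gene was not called (log2 fold change 0.17, SE 0.13). Bhlhe41, which encodes its relative Dec2 (ENSMUSG00000030256, chr6:145803969-145811284, minus strand), had 86.0, 87.9 and 217 CPM in Y-KO, against 165, 156 and 160 CPM in Y-Scr. Here the pattern was turned round, with Y-KO replicates 1 and 2 below and replicate 3 above all Y-Scr libraries, and the gene was not called (log2 fold change -0.30, SE 0.32). Without Y-KO replicate 3, which leaves the 2 closest Y-KO libraries, Bhlhe40 was called higher (log2 fold change 0.30) and Bhlhe41 lower (log2 fold change -0.88), where 33.7% of all genes tested were called. Without Y-KO replicate 1 or 2, neither was called, with log2 fold changes of 0.12 and 0.064 for Bhlhe40 and of -0.073 and -0.082 for Bhlhe41.

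Of the 9 marker sums, 6 were lowest in Y-KO replicate 3 among the Y-KO libraries, and those of fibroblasts and epithelium were highest there. The sum of 9 fibroblast markers was 239, 245 and 691 CPM in Y-KO, against 1013 to 1077 CPM in Y-Scr, with 3 called lower, none higher, and the defining markers Dcn and Pdgfra above 0 in all libraries. The sum of 10 macrophage markers was 2303, 2275 and 1172 CPM in Y-KO, against 1231 to 1360 CPM in Y-Scr, with 5 called higher and none lower, and Csf1r and Adgre1 above 0 throughout. In the fibroblast sum, Dcn alone had 54.1, 57.6 and 423 CPM in Y-KO, against 407 to 441 CPM in Y-Scr. Bhlhe41 was highest in Y-KO replicate 3, as the fibroblast and epithelium sums were. Bhlhe40 was lowest in that library, as were the sums of macrophages, leukocytes, T and NK cells, neutrophils, endothelium and mast cells. These are matches in rank alone. In Y-KO replicate 3 Bhlhe41 stood above all Y-Scr libraries, whereas the fibroblast sum stood below them. The epithelium sum differed little within Y-KO, at 3223, 3261 and 3427 CPM in replicates 1, 2 and 3. The part of these cells in the Dec gene levels was not tested.

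**Figure D3:**
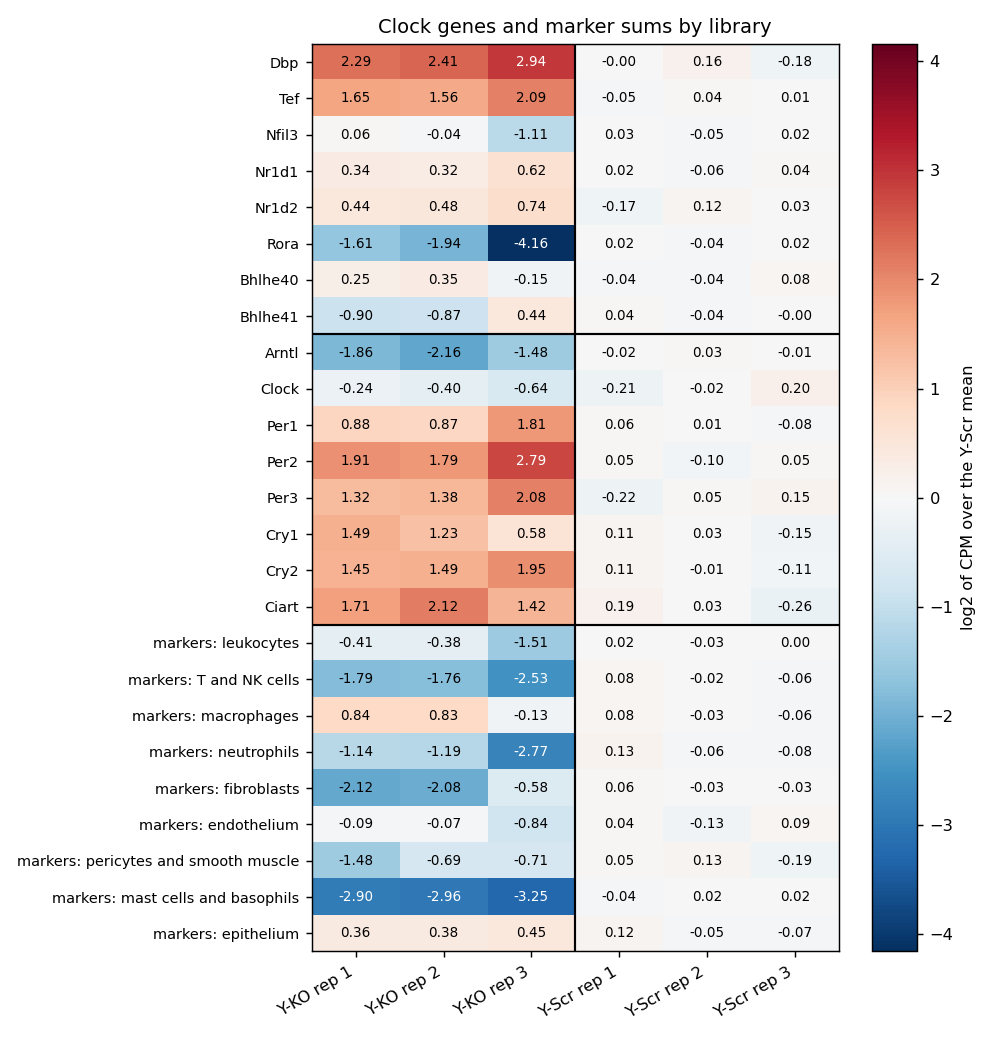
Log2 of the CPM of each gene, or of each summed marker list, over its mean in Y-Scr, by library (columns), for the members other than Hlf, the core loop genes tested and the marker lists. Dbp, Tef, the Per genes and Cry2 are positive in all Y-KO libraries and highest in replicate 3, while the leukocyte, neutrophil and T and NK cell sums are lowest in replicate 3.

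Levels of different genes were set side by side only in TPM. In Y-KO the order was Bhlhe40 (147 ± 25.7 TPM, SD, n = 3), Nfil3 (91.3 ± 34.9 TPM), Dbp (61.1 ± 15.7 TPM), Nr1d1 (53.2 ± 6.55 TPM), Tef (52.1 ± 10.7 TPM), Bhlhe41 (51.4 ± 29.8 TPM), Nr1d2 (46.6 ± 5.54 TPM), Rora (0.317 ± 0.208 TPM) and Hlf (0.0239 ± 0.0415 TPM). All neighbours from Nfil3 to Nr1d2 in this order overlapped between libraries. In Y-Scr the order was Bhlhe40 (156 ± 11.8 TPM), Nfil3 (131 ± 4.50 TPM), Bhlhe41 (74.8 ± 1.71 TPM), Nr1d1 (46.6 ± 2.26 TPM), Nr1d2 (37.5 ± 5.07 TPM), Tef (17.96 ± 1.23 TPM), Dbp (12.1 ± 1.502 TPM), Rora (1.75 ± 0.0634 TPM) and Hlf (0.243 ± 0.117 TPM), and no neighbours overlapped. Dbp held the third place in Y-KO and the seventh in Y-Scr.

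The core loop was read from a list of 9 genes, also chosen with earlier results known, of which 8 were tested. Of these, 6 rose, 1 fell and 1 missed the threshold, with a median log2 fold change of 1.45. Among all genes tested, 7.82% were called higher and 8.27% lower. As the list was chosen so, its calls and p-values are a description and no independent evidence. The time of day of collection is not given for either group, and its part in the differences of the clock genes was not tested. On the activating arm, Arntl, which encodes Bmal1, had 6.75, 5.48 and 8.76 CPM in Y-KO, against 24.1, 25.1 and 24.3 CPM in Y-Scr. It fell 3.50-fold (-1.81 on the log2 scale, SE 0.18, edgeR adjusted p = 0.000517), opposite to Nr1d1 and in the same direction as Rora. The log2 ratio of Nr1d1 to Arntl in TPM was 4.30 to 4.67 in Y-KO and 2.10 to 2.24 in Y-Scr. Clock, the partner of Bmal1, differed by -0.42 on the log2 scale (SE 0.14, edgeR adjusted p = 0.0865) and was called lower with library size alone as the scaling and with no filter on low counts. Npas2, a relative of Clock, had no reads in Y-KO and 17 in Y-Scr and was not tested.

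On the repressing arm, Per2 had 41.7, 38.1 and 76.6 CPM in Y-KO, against 11.4, 10.3 and 11.5 CPM in Y-Scr, and rose 4.71-fold (2.24 on the log2 scale, SE 0.26, edgeR adjusted p = 0.00100). Per1 and Per3 rose 2.39-fold and 3.11-fold. Cry2 rose 3.12-fold and Cry1 2.21-fold, and Ciart, which encodes a repressor of Bmal1 and Clock, 3.43-fold. Per1, Per2, Per3 and Cry2 were highest in Y-KO replicate 3, as Dbp, Tef and the Rev-erb genes were, whereas Cry1 and Ciart were lowest there (17.8 and 16.6 CPM). Leaving out Y-Scr replicate 2 or 3 ended the edgeR calls of Per1 and Cry1 (adjusted p from 0.0514 to 0.0628). Summing the closest pairs ended them too (edgeR adjusted p = 0.0690 for Per1 and 0.137 for Cry1), which left 4 core loop genes higher.

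**Figure D4:**
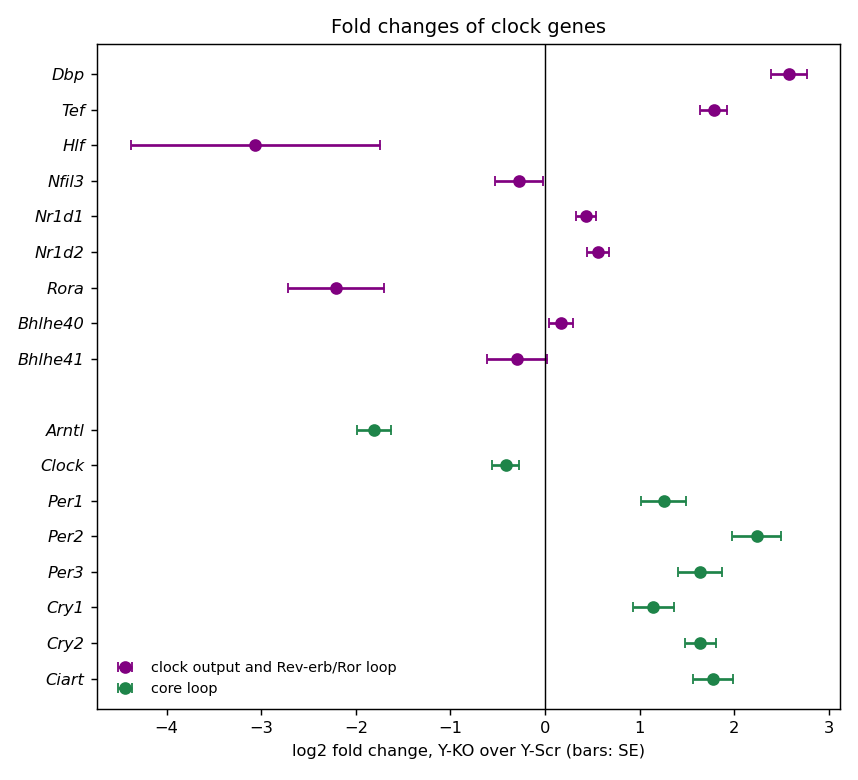
Log2 fold change of Y-KO over Y-Scr with its SE (x axis) for the 9 clock output and Rev-erb/Ror loop genes (purple) and the 8 core loop genes tested (green), from the same fit. Dbp at 2.58, Per2 at 2.24 and Tef at 1.78 lie on the right, and Hlf at -3.06, Rora at -2.21 and Arntl at -1.81 on the left.

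Other genes known to follow the clock or to be PAR bZIP targets were taken from a list of 12, of which 11 were tested. By edgeR 2 were higher and none was lower (none lower at an unadjusted p under 0.05, by DESeq2 or by limma-voom). Among all genes tested, 7.82% were called higher and 8.27% lower. Wee1, a kinase gene that holds back mitosis and is driven through E-boxes, had 76.9, 77.4 and 197 CPM in Y-KO, against 27.9, 32.1 and 35.9 CPM in Y-Scr. It rose 3.67-fold (edgeR adjusted p = 0.00909). Leaving out Y-Scr replicate 1 or 2 ended this edgeR call, with an adjusted p of 0.0574 and 0.0511, as did summing the closest pairs (0.0591). Tspan4, a tetraspanin gene, rose 2.17-fold (1.12 on the log2 scale, SE 0.11, edgeR adjusted p = 0.000456). The next smallest p-values were those of Por, the electron donor of cytochrome P450 enzymes, at 0.37 on the log2 scale (SE 0.11, edgeR adjusted p = 0.0566), and of Noct, a circadian phosphatase gene, with 0.40 (SE 0.14, edgeR adjusted p = 0.0890). When Y-KO replicate 3 was left out, 6 of the list were higher and 1 was lower, in a fit that called 33.7% of all genes tested.

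Of 16 clock regulators (kinases, ubiquitin ligase parts, Rev-erb corepressors and other partners) all were tested. By edgeR 2 were higher and none was lower (1 lower at an unadjusted p under 0.05, none by DESeq2 or limma-voom). Among all genes tested, 7.82% were called higher and 8.27% lower, and 2 of 16 is little above the former share. The deacetylase gene Sirt1 rose 1.46-fold (edgeR adjusted p = 0.0411) and Nono, which encodes a partner of the Per proteins, 1.21-fold (edgeR adjusted p = 0.0388). The Sirt1 call was kept without Y-KO replicate 3 and ended when any 1 of the other libraries was left out (edgeR adjusted p from 0.0528 to 0.146), and that of Nono without Y-KO replicate 1 or 2 or Y-Scr replicate 2 or 3 (range of the edgeR adjusted p: 0.0824 to 0.180). Both calls also ended with the replicate block, with library size alone as the scaling and with the closest pairs summed (edgeR adjusted p from 0.0790 to 0.335), and that of Nono by upper quartile scaling (0.0723) and with no filter on low counts (0.0674). The Rev-erb corepressor genes Hdac3 and Ncor1 had log2 fold changes of 0.21 (SE 0.08) and -0.18 (SE 0.10) and did not pass, nor did the ubiquitin ligase gene Fbxw7, at -0.33 (SE 0.13).

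The genes most like Dbp over the 6 libraries in log2 CPM were Mnd1, which acts in meiotic recombination, with Pearson's r of 0.998, the phosphoglucomutase gene Pgm1 (0.997), the oxygen-sensing prolyl hydroxylase gene Egln1 (0.997), Rnaseh2a, a subunit of ribonuclease H2 (0.997), and the core loop gene Cry2 (0.996). Of 11413 genes compared, 33 had a value over 0.99. The 6 libraries form 2 groups, so these values describe the split between the groups as well as the order within them, and they carry no test. The likest genes moved less than Dbp: Egln1 stood at 125 to 136 CPM in Y-KO, against 97.8 to 100.04 CPM in Y-Scr.

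**Figure D5:**
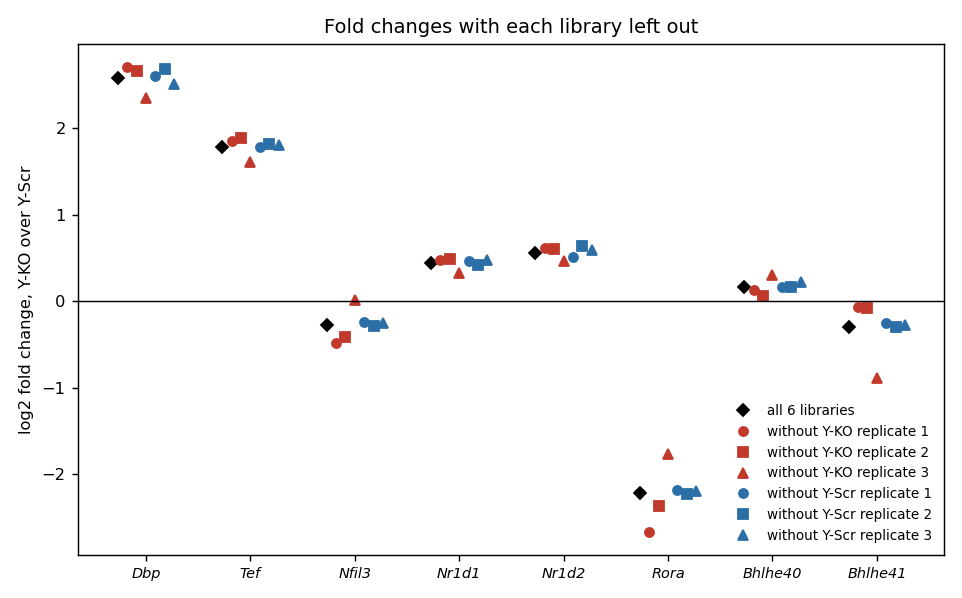
Log2 fold change of Y-KO over Y-Scr (y axis) of each member other than Hlf with all 6 libraries (black) and with each library left out in turn (red for a Y-KO library, blue for a Y-Scr library; circles, squares and triangles are replicates 1, 2 and 3). Dbp stays between 2.35 and 2.70, whereas leaving out Y-KO replicate 3 moves Nfil3 to 0.0085 and Bhlhe41 to -0.88.

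Exons of some members overlap those of a gene on the other strand, where reads cannot be told apart when strand is not used. The overlap took 18.01% of the exon bases of Dbp (with Sphk2), 19.0% of Bhlhe41 (with the gene model Gm43909) and 8.55% of Nr1d1 (with the thyroid hormone receptor gene Thra). It was 2.51% or less in the other members. By the counter's defaults reads in such stretches were left out, while TPM was divided by the whole exon length, so the printed TPM of Dbp, Bhlhe41 and Nr1d1 is lower than their reads per countable base. With the shared bases taken out of the length, an alternative chosen after seeing the data, Dbp averaged 74.5 TPM in Y-KO and 14.8 TPM in Y-Scr, and Bhlhe41 averaged 63.6 TPM in Y-KO and 92.4 TPM in Y-Scr. Bhlhe41 then stood above Nr1d1 and Tef in Y-KO, next below Dbp, and Dbp kept its place in both groups. The log2 ratio of Dbp to Nfil3 became -0.92, -0.70 and 0.91 in Y-KO and -3.35 to -2.93 in Y-Scr. Fold changes between the groups do not depend on the length.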

How the data were processed

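The authors deposited raw read counts per gene for 3 Y-KO and 3 Y-Scr libraries, a stranded poly-A protocol per the labels. Per the file headers, the counter was featureCounts 1.5.3 with default options on GRCm39 (annotation: Ensembl release 112), which uses no strand and drops reads that fit several genes. Per the submitters' processing notes, Trimmomatic 0.39 and STAR 2.5.2b were used before it. Symbols were matched by gene ID (51880 of 57186 genes).

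Groups followed the titles. The test was that of edgeR 4.0.16 under R 4.3.3 (filterByExpr, at least 10 reads and 15 in total, TMM scaling, quasi-likelihood test, group alone in the model). Its code was tried on simulated counts that held no deviating library such as Y-KO replicate 3, so its error rate on these libraries was not tested. CPM is scaled to the TMM-adjusted library size, and TPM was computed from the deposited counts and gene lengths. The SE is the log2 fold change divided by the square root of F. Alternatives were the replicate block, DESeq2 1.42.0, limma-voom (limma 3.58.1), other scalings and filters, halved counts, the closest library pairs summed, each library left out, and, for TPM, exon length without bases shared with other genes. Sequences are from RefSeq. The members, lists, naming rules and the pairs to sum were chosen with earlier results of these data known. By rule, all members and core loop genes, up to 4 genes with the smallest p of each other list, and the 5 genes most like Dbp were named; Hdac3, Ncor1 and Rorb were named for their roles, and some genes of these lists are not reported here. Plots were drawn with matplotlib 3.10.9.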

Additional observations from a re-analysis of the deposited data

How the results depend on the processing

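Direction and call of Dbp, Tef, Arntl, Per2, Per3, Cry2, Ciart and Tspan4 were kept in all alternatives run. With library size alone as the scaling, 730 genes were higher and 2255 lower, 2 core loop genes were lower, and no clock regulator was higher (0) and 1 was lower. With the closest library pairs summed, 136 genes were higher and 360 lower. Of the members 2 were then higher and 0 lower, and 0 regulators and 1 other output gene were higher. Without the filter on low counts, 2 core loop genes were lower, and 1 regulator and 4 other output genes were higher. By upper quartile scaling 1 regulator was higher, and by DESeq2 4 other output genes were higher. With the replicate number as a block, 946 genes were higher and 1120 lower, 4 members were higher and 1 lower, and 0 regulators were higher. Same-numbered libraries did not deviate together (correlations of -0.0084, 0.0049 and -0.014). With 3 libraries in each group this cannot show whether they share anything beyond a number. With each library left out in turn, 461 to 3029 genes were higher and 560 to 3364 lower, 2 to 5 members were higher and 0 to 2 lower, 0 to 3 regulators were higher and 0 to 3 lower, and 1 to 6 other output genes were higher and 0 to 1 lower. The log2 fold change of Nfil3 ran from -0.48 to 0.0085, the positive value without Y-KO replicate 3. The cause of these shifts was not tested. Depth limits Hlf, Rorb and Npas2 most among the genes named, with 8 or fewer reads in each Y-KO library. Rora had 116, 84 and 18 reads in Y-KO replicates 1, 2 and 3.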
